A study of Mus musculus with 16 samples.

Results

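The receptor-interacting protein (RIP) kinases Ripk1, Ripk2, Ripk3 and Ripk4 are 4 of the 48709 genes in the count table, taken by their mouse symbols after the Ensembl identifiers were matched without the version. The set was chosen by the measured difference of Ripk4 between QKO and WT hearts, so that contrast is given for all 4 kinases as values without a test. RNA of heart and liver was counted in 8 female C57BL/6J mice aged 3 to 6 months that received no treatment. The groups were 4 quadruple knockouts (QKO), in which the methionine sulfoxide reductase genes Msra, Msrb1, Msrb2 and Msrb3 had been targeted, and 4 wild types (WT). Both tissues came from each animal, which gave 16 libraries in 4 groups of 4. The labels do not say how the alleles were made, or whether the QKO and WT mice were littermates.

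RIP kinases share a related kinase domain and differ in the parts that bind other proteins. Ripk1 joins the tumour necrosis factor (TNF) receptor through a death domain, where it serves as a scaffold for NF-kappaB signalling or, through its kinase activity, starts apoptosis or necroptosis. Ripk3 binds Ripk1 through a shared motif and phosphorylates Mlkl, the protein that opens the cell membrane in necroptosis. Ripk2 carries a CARD domain and passes on the signal of Nod1 and Nod2, which sense fragments of bacterial cell wall. Ripk4 carries ankyrin repeats, binds the protein kinase Prkcd and is needed in the mouse for the epidermis to form. In liver, Ripk1 is known to protect hepatocytes from death through TNF, and in the mouse heart Ripk3 is known to take part in the death of muscle cells after injury.

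On the mouse assembly GRCm38 (mm10), Ripk1 (ENSMUSG00000021408.14) lies on chromosome 13, 34002363 to 34037147, on the plus strand. Ripk2 (ENSMUSG00000041135.15) lies on chromosome 4, 16122733 to 16163647, Ripk3 (ENSMUSG00000022221.13) on chromosome 14, 55784995 to 55788865, and Ripk4 (ENSMUSG00000005251.14) on chromosome 16, 97741933 to 97763787, each on the minus strand. Ripk3 alone shares a chromosome with a targeted gene, at 8.334 Mb from Msra. RefSeq promoter sequences of GRCm38.p6 matched Ripk1 and Ripk3, the kinases that join in the necroptosis complex and whose RNA levels are set side by side in the results. The 250 bases before the start annotated in RefSeq are printed 5′ to 3′ on the strand of the gene, with each CG dinucleotide in capitals. They run over chr13:34002113-34002362 for Ripk1 and chr14:55788858-55789107 for Ripk3. The Ripk3 window reaches a few bases into the gene as placed above, up to 55788865. For Ripk1 the source listed 2 promoters, of which 1 is printed.
Ripk1: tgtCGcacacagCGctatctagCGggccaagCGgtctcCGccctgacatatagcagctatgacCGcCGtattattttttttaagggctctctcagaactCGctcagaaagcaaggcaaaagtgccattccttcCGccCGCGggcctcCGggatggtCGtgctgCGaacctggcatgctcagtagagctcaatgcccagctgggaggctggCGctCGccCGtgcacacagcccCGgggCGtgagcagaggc
Ripk3: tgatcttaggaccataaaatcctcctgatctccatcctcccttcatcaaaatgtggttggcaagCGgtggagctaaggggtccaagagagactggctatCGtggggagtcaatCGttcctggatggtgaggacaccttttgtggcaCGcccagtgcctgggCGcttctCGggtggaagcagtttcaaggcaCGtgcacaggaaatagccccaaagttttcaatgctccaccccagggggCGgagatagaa
The Ripk1 window held 19 CG dinucleotides, and 19.7% of 32851 mouse promoter windows of the same length held as many or more. The Ripk3 window held 8, which 43.0% of windows reached or passed, against a median of 6. These counts describe the sequence and were not tied to the RNA levels by a test.

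Each heart library summed to 42.1 M to 72.6 M counts and each liver library to 37.9 M to 67.9 M, and the part on protein-coding genes was 9.21 M to 28.2 M in heart and 21.6 M to 40.7 M in liver. The share of 4 listed loci of ribosomal RNA was 0.245% in QKO heart 4, 7.37% in WT heart 4 and 31.4% to 56.9% in the other heart libraries, and 0.315% to 0.98% in liver. WT livers 3 and 4 held transcripts of pancreatic acinar cells, with marker sums of 516 and 156 CPM, the count of a gene in each 1 M counted reads, where the remaining livers had 2.77 to 5.59 CPM. Skeletal muscle markers summed to 237 CPM in WT liver 4. Cardiomyocyte markers summed to 13462 CPM or more in every heart library and hepatocyte markers to 29905 CPM or more in every liver library, as the tissue labels say. Of the targeted genes, Msrb2 RNA had log2 fold changes of QKO over WT of -6.40 in heart and -7.04 in liver, and Msrb3 RNA of -2.62 and -1.99. Msra RNA stood at 7.10 CPM in QKO hearts and 10.1 CPM in WT hearts, and Msrb1 RNA at 20.9 CPM in QKO hearts and 14.9 CPM in WT hearts, so this targeted gene was higher in QKO hearts (log2 fold change 0.48, adjusted p = 0.0337 by edgeR). In liver both were on the lower side and neither passed. There Msra stood at 34.3 CPM in QKO and 56.3 CPM in WT mice, and Msrb1 at 76.5 and 99.9 CPM. Counts over whole genes do not show whether a targeted exon was missing. Values are given as CPM after TMM scaling of the libraries, a level, and as log2 fold changes with their standard error (SE) from edgeR, a difference.

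Per length, Ripk1 had the highest level of the 4 kinases in liver and Ripk3 the lowest, while in heart Ripk4 was lowest in both genotypes. CPM per kb of exon in QKO livers averaged 2.84 ± 0.429 for Ripk1, 1.89 ± 0.136 for Ripk4, 1.50 ± 0.0296 for Ripk2 and 0.510 ± 0.0893 for Ripk3 (SD, n = 4). WT livers had the same order, at 2.77 ± 0.623 for Ripk1, 1.74 ± 0.149 for Ripk4, 1.17 ± 0.181 for Ripk2 and 0.439 ± 0.0666 for Ripk3 (SD, n = 4). In both liver groups the libraries of neighbouring kinases in this order did not overlap. In QKO hearts the means were 0.718 ± 0.117 for Ripk2, 0.712 ± 0.0746 for Ripk1, 0.331 ± 0.0647 for Ripk3 and 0.193 ± 0.0350 for Ripk4 (SD, n = 4). In WT hearts they were 0.751 ± 0.0856 for Ripk2, 0.703 ± 0.0292 for Ripk1, 0.354 ± 0.0701 for Ripk3 and 0.0277 ± 0.0137 for Ripk4 (SD, n = 4). Ripk1 and Ripk2 overlapped in both heart groups, and no other neighbours did. With the longest coding transcript as the length, Ripk1 stood above Ripk2 in heart, at 0.918 against 0.751 CPM per kb in QKO hearts and 0.907 against 0.785 CPM per kb in WT hearts, so their order in heart rests on the gene model. Among 18192 protein-coding genes ranked per length, Ripk1 stood at percentile 51.8 in QKO hearts, 51.7 in WT hearts, 76.3 in QKO livers and 76.0 in WT livers. Ripk4 stood at percentile 34.7 in QKO hearts, 19.7 in WT hearts, 69.3 in QKO livers and 68.0 in WT livers.

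**Figure D1:**
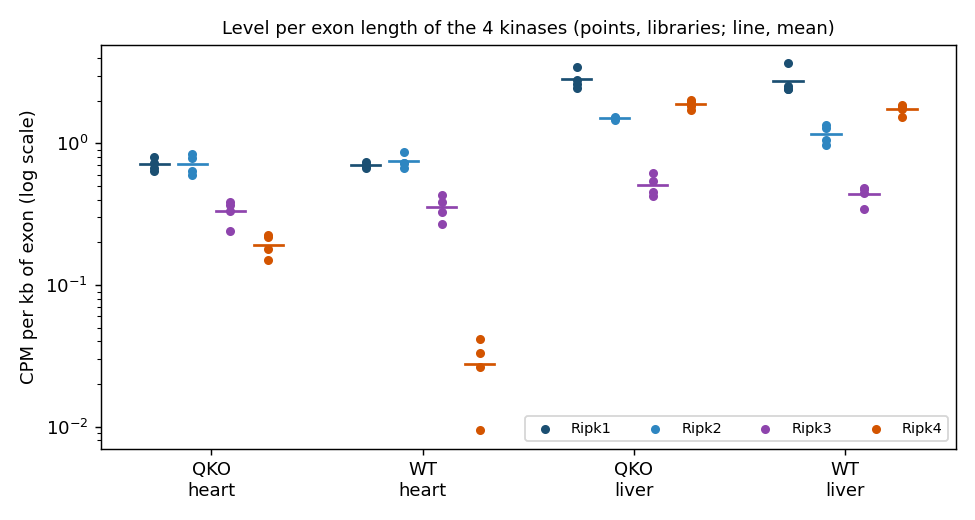
Level of each kinase as CPM per kb of exon (log scale) in QKO hearts, WT hearts, QKO livers and WT livers, with a point for each of 4 libraries and a line at the mean. Ripk4 is the lowest in heart, at 0.193 in QKO and 0.0277 in WT, and lies between Ripk1 and Ripk2 in liver, at 1.89 in QKO and 1.74 in WT.

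Ripk4, the ankyrin-repeat kinase of the epidermis, was counted in few reads in heart and was higher in QKO hearts than in WT hearts. Its counts were 19, 19, 30 and 68 in QKO hearts 1 to 4, against 4, 3, 1 and 13 in WT hearts 1 to 4. As levels, these were 0.643, 0.539, 0.784 and 0.807 CPM in QKO hearts, against 0.0947, 0.119, 0.0339 and 0.150 CPM in WT hearts. Every QKO heart stood above every WT heart, and the lowest QKO value was 0.539 CPM where the highest WT value was 0.150 CPM. The means were 0.693 ± 0.126 CPM in QKO hearts and 0.0994 ± 0.0492 CPM in WT hearts (SD, n = 4). The log2 fold change was 2.65 (SE 0.37), and the 136 counts summed over QKO hearts against 21 over WT hearts gave a ratio of rates of 6.35. The 95% exact binomial interval of that ratio was 3.99 to 10.6. It pools the reads of each group and covers counting error only, not the spread between mice. Since these hearts chose Ripk4, it is a description and no test. Over all genes, 0.165% of 16974 passed an adjusted p of 0.05 in heart and 3.96% did not overlap between the groups, 2.09% with QKO higher. Since this contrast chose Ripk4, nothing is read from its place among them.

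Replicates 1 and 2 carry animal numbers that begin with 47, and replicates 3 and 4 numbers that begin with 48. The log2 fold change was 2.46 among hearts of series 47 and 2.78 among hearts of series 48. Leaving out the hearts of replicate 4, the libraries with little ribosomal RNA, gave 2.93. Over protein-coding genes alone it was 2.65. These values come from the same hearts that chose Ripk4 and are no independent support. As a rate relative to Ripk1 per length, Ripk4 stood at 0.279, 0.225, 0.270 and 0.307 in QKO hearts 1 to 4, against 0.0355, 0.0491, 0.0136 and 0.0597 in WT hearts 1 to 4.

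Transcripts of hepatocytes were present in every heart library, at 69.4 to 157 CPM over 8 markers in QKO hearts and 53.3 to 321 CPM in WT hearts. At the rate at which these markers appeared, liver RNA would carry 0.667, 0.753, 0.586 and 1.11 counts of Ripk4 in QKO hearts 1 to 4. The same calculation gives 2.22, 0.820, 0.786 and 1.01 counts in WT hearts 1 to 4. The observed counts were 19, 19, 30 and 68 in QKO hearts 1 to 4 and 4, 3, 1 and 13 in WT hearts 1 to 4. The part of liver RNA in the Ripk4 difference was not tested. The median log2 fold change of QKO over WT hearts was -0.78 over the 8 hepatocyte markers, all on the lower side, with 0 past the threshold and 3 at an unadjusted p under 0.05 by edgeR. Of these markers 1 was called lower without the filter, 1 with the replicate block and 4 within animal series 47. Over all genes tested in heart, those settings called 102 of 30532, 50 of 16974 and 108 of 16322. Among all genes tested in heart, 7.19% had an unadjusted p under 0.05 by edgeR.

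**Figure D2:**
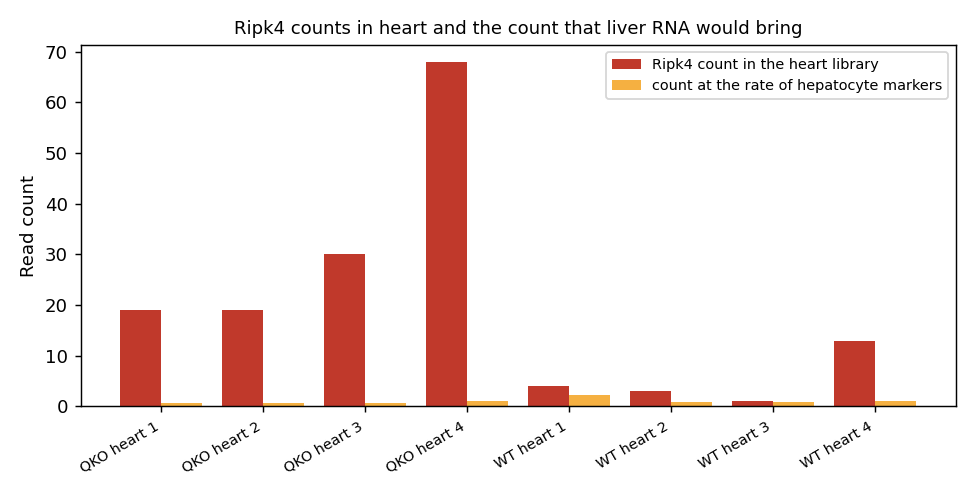
Read counts of Ripk4 in each heart library (red) beside the count that liver RNA would bring at the rate of hepatocyte markers (orange), for QKO hearts 1 to 4 and then WT hearts 1 to 4. The QKO hearts hold 19 to 68 counts and the WT hearts 1 to 13. The orange bars are at 0.586 to 1.11 in QKO hearts and 0.786 to 2.22 in WT hearts.

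Of the 10 keratinocyte markers, which mark the cells best known for Ripk4, Krt5, Krt1 and Krt14 had 0 counts in all 8 heart libraries. The sum of the list was 40.5 to 46.6 CPM in QKO hearts and 31.4 to 41.4 CPM in WT hearts, and most of it was Perp, a junction protein that many tissues make, at 40.9 CPM in QKO hearts and 34.3 CPM in WT hearts (log2 fold change 0.24, SE 0.081, adjusted p = 0.636 by edgeR). Of the others, Col17a1 stood at 1.62 CPM in QKO hearts and 1.52 CPM in WT hearts, Krt10 at 0.378 and 0.545 CPM, and Trp63 at 0.119 and 0.0603 CPM, while Krt15, Dsg3 and Dsc3 had 8 counts or fewer per group. Cardiomyocyte markers summed to 16277 to 17864 CPM in QKO hearts and 13462 to 15302 CPM in WT hearts, on the same side as Ripk4. Myh6 alone stood at 8039 CPM in QKO hearts and 6412 CPM in WT hearts. Of the 8 cardiomyocyte markers 7 were on the higher side, with a median log2 fold change of 0.12, 2 at an unadjusted p under 0.05 and 0 past the threshold by edgeR, while DESeq2 called 1 higher. Macrophage markers lay on the other side from Ripk4, with sums of 108 to 123 CPM in QKO hearts and 131 to 173 CPM in WT hearts. Neither the cardiomyocyte nor the macrophage sums overlapped between the genotypes. Among single genes tested in heart 3.96% did not overlap, 2.09% with QKO higher and 1.87% with QKO lower. All 12 tested macrophage markers were on the lower side in QKO hearts, with a median log2 fold change of -0.43, and 0 passed the threshold by edgeR, while 8 had an unadjusted p under 0.05, as did 7.19% of all genes tested in heart. DESeq2 called 3 of them lower, as did the fit without the filter, and 1 was called with the replicate block and 1 with a term for the series of animal numbers. Over all genes tested in heart, DESeq2 called 64 of 16974 and the fit without the filter 102 of 30532. The replicate block called 50 of 16974 and the term for the series 42 of 16974. Clec4f and Marco, markers of liver macrophages, stood at 0.263 and 0.0226 CPM in QKO hearts. Mesothelial markers summed to 3.28 to 5.11 CPM in QKO hearts and 4.79 to 6.49 CPM in WT hearts. Airway markers reached at most 0.287 CPM in QKO hearts and 0.118 CPM in WT hearts. The part of these cell types in the Ripk4 difference was not tested. In whole tissue, fewer cells of a type and less RNA per cell cannot be told apart.

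The other 3 kinases lay close to each other in QKO and WT hearts. Ripk1 stood at 5.35, 5.56, 6.74 and 6.11 CPM in QKO hearts 1 to 4, against 6.20, 5.62, 5.80 and 5.84 CPM in WT hearts 1 to 4. Ripk2 stood at 2.37, 1.79, 1.70 and 2.23 CPM in QKO hearts, against 2.06, 1.90, 2.03 and 2.46 CPM in WT hearts. Ripk3 stood at 0.880, 0.766, 0.549 and 0.843 CPM in QKO hearts, against 0.616, 0.753, 0.983 and 0.889 CPM in WT hearts. For each of these kinases the groups overlapped. Their log2 fold changes were 0.0060 (SE 0.099) for Ripk1, -0.09 (SE 0.16) for Ripk2 and -0.11 (SE 0.25) for Ripk3. Ripk3 rested on 145 counts over QKO hearts and 151 over WT hearts, and its ratio of rates of 0.941 had a 95% exact binomial interval of 0.744 to 1.19, again for counting error only.

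**Figure D3:**
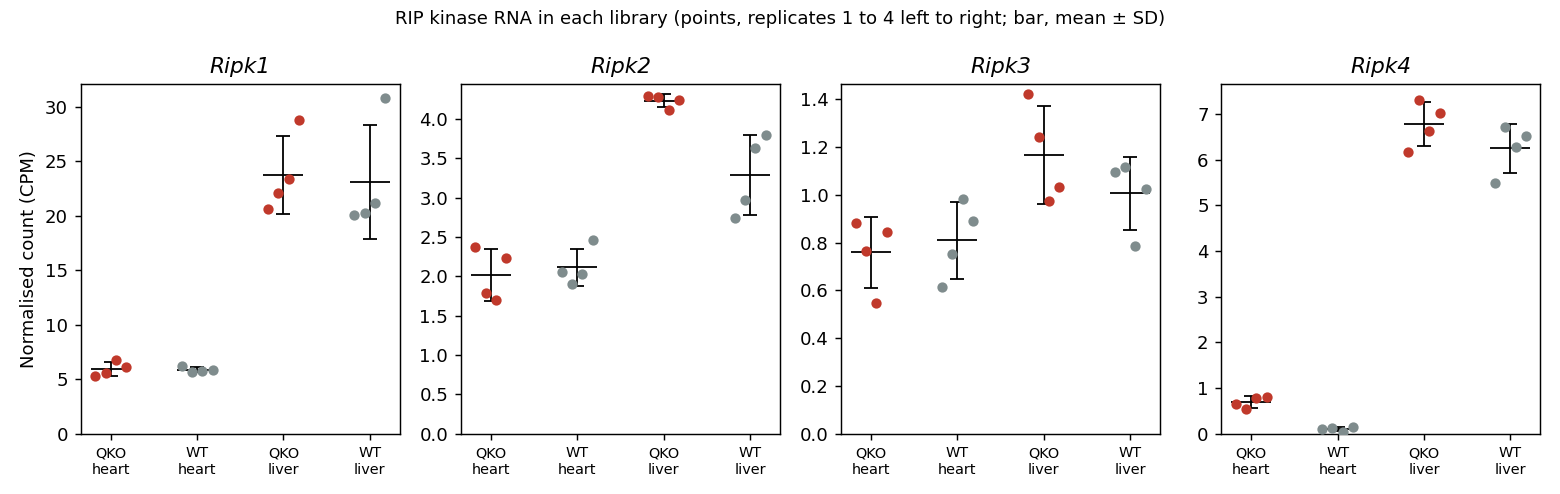
Normalised count (CPM) of each kinase in each library, with a panel for each kinase and its own axis from 0; points are replicates 1 to 4 from left to right and bars show the mean and SD. Ripk4 in heart lies at 0.539 to 0.807 CPM in QKO and 0.0339 to 0.150 CPM in WT, while Ripk2 in liver lies at 4.12 to 4.30 CPM in QKO and 2.74 to 3.79 CPM in WT.

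The liver contrast took no part in the choice of the kinases and asked whether any of them differed between the genotypes there. By edgeR's quasi-likelihood test with Benjamini-Hochberg adjustment, 0 of the 4 passed, where 0.0846% of 17738 genes did. At an unadjusted p under 0.05 the number was 1, Ripk2, where 3.29% of all genes stood under that value, and DESeq2 and limma-voom called 0 as well. Ripk2, the kinase of the Nod receptors, stood at 4.30, 4.28, 4.12 and 4.25 CPM across QKO livers 1 to 4, against 2.74, 2.97, 3.64 and 3.79 CPM in WT livers 1 to 4. Every QKO liver was above every WT liver, and the QKO libraries lay within a narrower range. WT livers 3 and 4, which held acinar transcripts, were the higher WT livers, and the part of those transcripts was not tested. The log2 fold change was 0.36 (SE 0.16, 95% interval 0.021 to 0.70), with an adjusted p of 1.00 by edgeR. Over all genes tested, 2.05% did not overlap between the genotypes in liver, 0.964% with QKO higher. Within animal series 47 the log2 fold change was 0.58 and within series 48 it was 0.18, and neither passed. Without WT livers 3 and 4 it was 0.56, with an adjusted p of 0.709.

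Ripk4 RNA in liver stood at 6.17, 7.30, 6.62 and 7.01 CPM in QKO mice 1 to 4, against 5.50, 6.72, 6.27 and 6.52 CPM in WT mice 1 to 4. The groups overlapped, with a log2 fold change of 0.11 (SE 0.13, 95% interval -0.17 to 0.40, adjusted p = 1.00 by edgeR). The difference between heart and liver in the effect of genotype was not tested. Ripk1 RNA was at 20.6, 22.1, 23.4 and 28.8 CPM across QKO livers, against 20.1, 20.2, 21.2 and 30.9 CPM in WT livers. In each genotype liver 4 was the highest, and the log2 fold change was 0.034 (SE 0.17, 95% interval -0.34 to 0.40). Its sign turned without QKO liver 4, at -0.073, and without WT liver 1, 2 or 3, at -0.019, -0.030 and -0.00012. Ripk3 RNA was at 1.42, 1.24, 0.974 and 1.03 CPM across QKO livers, against 1.10, 1.12, 0.785 and 1.02 CPM in WT livers. The groups overlapped, with a log2 fold change of 0.22 (SE 0.23, 95% interval -0.28 to 0.71), and macrophage markers summed to 486 to 601 CPM in QKO livers and 468 to 699 CPM in WT livers.

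Between the tissues of WT mice, Ripk1 and Ripk2 were lower in heart and Ripk3 did not pass, where 36.9% of 18204 genes were called lower and 72.5% were called in either direction. Ripk4 stood at 0.0994 ± 0.0492 CPM in WT hearts and 6.25 ± 0.535 CPM in WT livers (SD, n = 4), with a log2 fold change of heart over liver of -5.75 (SE 0.26). This is given as a description with no test, since the WT hearts took part in the contrast that chose Ripk4 and the gene passed the filter on low counts through the livers. In QKO mice the levels were 0.693 ± 0.126 CPM in heart and 6.78 ± 0.488 CPM in liver (SD, n = 4), and in both genotypes every heart library lay below every liver library. Ripk1 stood at 5.87 ± 0.243 CPM in WT hearts and 23.1 ± 5.20 CPM in WT livers (SD, n = 4), and fell by 1.92 (SE 0.15, adjusted p = 4.919e-07 by edgeR). Ripk2 stood at 2.11 ± 0.241 CPM in WT hearts and 3.29 ± 0.509 CPM in WT livers (SD, n = 4), and fell by 0.57 (SE 0.16, adjusted p = 0.00840 by edgeR). That call was lost without WT livers 3 and 4, at -0.40 with an adjusted p of 0.0600, and within animal series 47, at -0.46 with an adjusted p of 0.116. Ripk3 did not pass, at 0.810 ± 0.161 CPM in WT hearts and 1.01 ± 0.153 CPM in WT livers (SD, n = 4), with a log2 fold change of -0.25 (SE 0.24, 95% interval -0.78 to 0.28, adjusted p = 0.366 by edgeR). For Ripk1 and Ripk2 heart and liver libraries of WT mice did not overlap, as held with heart lower for 35.8% of all genes tested. Macrophage markers were lower in WT hearts as well, 13 of 13 past the threshold with a median of -1.51. The list holds markers of liver macrophages, such as Clec4f (-8.42) and Marco (-7.47), for which a lower level in heart was fixed beforehand. Marco, with 8 counts over WT hearts, passed the filter on low counts through the livers, so its call is a description. The part of macrophages in the Ripk differences was not tested.

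**Figure D4:**
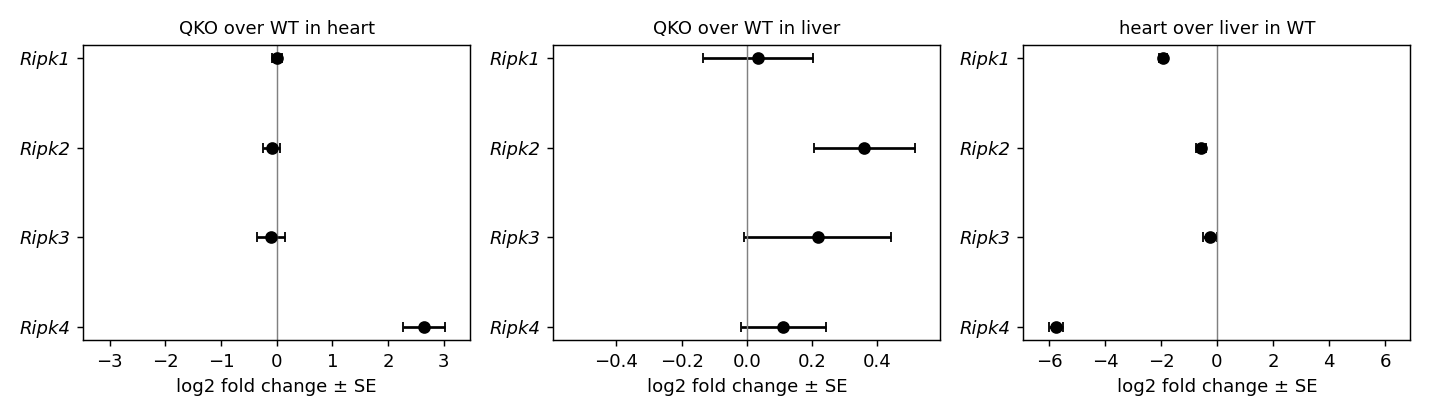
Log2 fold change and its SE for each kinase in the 3 comparisons, with a scale of its own in each panel. In QKO over WT hearts, shown as a description, Ripk4 lies at 2.65 and the others within 0.11 of 0, while heart over liver in WT puts Ripk4 at -5.75 and Ripk1 at -1.92.

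Ripk1 shares bases with other annotated genes. It overlaps Serpinb6a on the opposite strand over 432 bases and holds the processed pseudogenes Gm17083, on the opposite strand, and Gm17084, on its own strand over 511 bases. Gm17084 had 355 counts over QKO hearts, 317 over WT hearts, 1815 over QKO livers and 1769 over WT livers, beside 1127, 1081, 7168 and 6680 counts for Ripk1. Reads in that stretch could not be assigned to either gene from the table, so the Ripk1 level carries that uncertainty in every group. Ripk2 holds the short RNA gene Gm22690, which had 1 or 2 counts per group.

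The genes beside Ripk4 on chromosome 16 were Tmprss2, a membrane serine protease, at 130.7 kb and Prdm15, a zinc finger protein, at 27.68 kb. Tmprss2 had 18 counts over QKO hearts and 5 over WT hearts, too few for the test, and 1564 counts over QKO livers against 894 over WT livers. In liver its log2 fold change was 0.76 (SE 0.24, adjusted p = 1.00 by edgeR). Between the tissues of WT mice its log2 fold change of heart over liver was -6.70 (SE 0.41). This is a description with no test, since Tmprss2 passed the filter on low counts through the livers. Prdm15 had log2 fold changes of -0.25 (SE 0.13) in QKO over WT hearts and -0.048 (SE 0.19) in QKO over WT livers, and neither passed. The neighbours of Ripk1, Nqo2 at 13.92 kb and Bphl at 0.45 kb, had values of -0.041 and 0.22 in heart and -0.083 and 0.017 in liver, with 0 of them past the threshold. Of the neighbours of Ripk2 and Ripk3, which were Osgin2, Mmp16, Adcy4 and Nfatc4, 0 passed between the genotypes in heart or in liver.

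The partners of the kinases were described by 7 lists, and 0 of their tested members passed between QKO and WT mice in heart or in liver by edgeR or limma-voom. The kinases nearest to the family were Dstyk, Lrrk1, Lrrk2 and Ankk1. Lrrk2, a kinase tied to Parkinson disease in humans, stood at 17.4 ± 0.538 CPM in QKO hearts, 16.2 ± 0.702 in WT hearts, 4.62 ± 0.334 in QKO livers and 5.29 ± 0.863 in WT livers (SD, n = 4). Its log2 fold changes between the genotypes were 0.091 (SE 0.064) in heart and -0.20 (SE 0.16) in liver. Lrrk1 had -0.22 (SE 0.085) in heart and was the 1 of the 3 tested with an unadjusted p under 0.05, which 7.19% of all genes had in heart. Ankk1, which carries ankyrin repeats like Ripk4, had 0 counts over QKO hearts and 1 over WT hearts, and 0 in all livers. In WT mice 3 of 3 tested rose in heart over liver, where 35.6% of all genes were called higher, with Lrrk2 at 1.67 (SE 0.13), Dstyk at 0.54 (SE 0.10) and Lrrk1 at 0.54 (SE 0.13). Lrrk1 lost that call within animal series 47, at 0.42 with an adjusted p of 0.0697.

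Around Ripk1, the TNF receptor list held 26 genes. Median log2 fold changes of QKO over WT were -0.017 in heart and 0.047 in liver, beside -0.0013 and -0.0059 over all genes tested. Tnfrsf1a, the main TNF receptor, had 0.0020 (SE 0.088) in heart and 0.21 (SE 0.13) in liver, and Xiap, an inhibitor of caspases, -0.084 (SE 0.071) and -0.071 (SE 0.15). At an unadjusted p under 0.05 the numbers were 1 of 25 in heart, Tab1, and 1 of 25 in liver, Traf5, beside 7.19% and 3.29% of all genes tested. In WT heart over liver 7 of 26 rose and 13 fell, where 35.6% of all genes tested were called higher and 36.9% lower. Among those with the smallest p were the kinases Ikbke (-3.56) and Chuk (-2.32) and the adaptor Tradd (-2.66), which fell, and Mapkapk2 (2.03) and Tab1 (1.84), which rose, all on the log2 scale. Tnfrsf1a and Xiap fell by 1.00 each.

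The caspase-8 complex, through which Ripk1 leads to apoptosis, had medians of -0.084 in heart and 0.056 in liver over 9 tested genes. Casp8 itself stood at 2.70 ± 0.340 CPM in QKO hearts and 2.81 ± 0.437 in WT hearts, and at 9.88 ± 0.974 CPM in QKO livers and 8.49 ± 1.22 in WT livers (SD, n = 4). Its log2 fold changes were -0.084 (SE 0.15) in heart and 0.21 (SE 0.15) in liver. The adaptor Fadd had 0.068 (SE 0.18) in heart and 0.14 (SE 0.22) in liver, and Cflar, which holds Casp8 in check, -0.13 (SE 0.077) and -0.39 (SE 0.18). Nearest to a call was the death receptor Tnfrsf10b in liver, with 161 counts over QKO livers and 35 over WT livers, a log2 fold change of 2.06 (SE 0.36) and an adjusted p of 0.0922 by edgeR. At 0.128 CPM in WT livers it passed the filter on low counts through the QKO livers. It was also named after its values were seen, so these values are a description. By DESeq2, and in the fit of all 16 libraries, 1 of the 9 members was called in liver. Over all genes, those settings called 50 of 17738 and 44 of 19587. In heart Tnfrsf10b had 0.64 (SE 0.35), and 1 of the 9 members had an unadjusted p under 0.05, beside 7.19% of all genes. In WT heart over liver 2 of 9 rose and 6 fell, where 35.6% of all genes tested were called higher and 36.9% lower. Among those that fell were Bid (-1.81), Casp8 (-1.53) and Cflar (-1.45). Fadd did not pass there, at 0.35 (SE 0.24). Tnfrsf10b, counted among the 2 that rose, had 35 counts over WT livers and 132 over WT hearts. There it passed the filter on low counts through the hearts, so its call is a description.

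Around Ripk3, 12 necroptosis genes had medians of -0.023 in heart and -0.068 in liver. Mlkl, the substrate of Ripk3, stood at 1.40 ± 0.366 CPM in QKO hearts and 1.26 ± 0.154 in WT hearts, and at 2.53 ± 0.874 CPM in QKO livers and 2.51 ± 0.854 in WT livers (SD, n = 4). Its log2 fold changes were 0.13 (SE 0.22) in heart and 0.0033 (SE 0.30) in liver. Zbp1, a nucleic acid sensor that binds Ripk3, had 45 counts over QKO hearts and 95 over WT hearts, a log2 fold change of -0.95 (SE 0.41) with an adjusted p of 0.670 by edgeR. It was the 1 of 12 members with an unadjusted p under 0.05 in heart, which 7.19% of all genes had, and in liver it had -0.20 (SE 0.21). In WT heart over liver 2 of 12 rose and 6 fell, where 35.6% of all genes tested were called higher and 36.9% lower. Tlr4 (2.10), a receptor that reaches Ripk3 through Ticam1, was among those that rose. Among those that fell were Zbp1 (-3.18), Hsp90aa1 (-1.23), Chmp2a (-1.06), Mlkl (-0.94) and Trim28 (-0.85). Hsp90aa1 is a chaperone, Chmp2a takes part in membrane repair and Trim28 represses transcription. Ripk3 itself did not pass in that comparison.

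Around Ripk2, the 15 genes of the NOD list had medians of -0.062 in heart and -0.036 in liver. Nod1 stood at 7.96 ± 1.13 CPM in QKO hearts and 8.12 ± 1.32 in WT hearts, and at 7.45 ± 0.899 CPM in QKO livers and 6.61 ± 1.20 in WT livers (SD, n = 4). Nod2 stood at 1.22 ± 0.265 CPM in QKO hearts and 1.32 ± 0.285 in WT hearts, and at 0.251 ± 0.0959 CPM in QKO livers and 0.248 ± 0.0515 in WT livers (SD, n = 4). For Nod1 and Nod2 the log2 fold changes between genotypes were -0.052 (SE 0.13) and -0.16 (SE 0.21) in heart, and 0.17 (SE 0.16) and 0.015 (SE 0.38) in liver. None of the 14 tested in heart and 13 tested in liver had an unadjusted p under 0.05. In WT heart over liver 4 of 14 rose and 8 fell, where 35.6% of all genes tested were called higher and 36.9% lower. Those that rose included Nlrp10 at 7.44 and Nod2 at 2.48. Among those that fell were the transporters of cell wall fragments Slc46a3 (-2.03) and Slc15a4 (-1.32) and the ubiquitin ligase Itch (-1.12). Nlrp10 had 12 counts over WT livers and passed the filter on low counts through the hearts. Its value, and its place among the 4 that rose, are therefore a description. Nod2 was thus the higher in heart while Ripk2 was the lower there, and Nod1 did not pass, at 0.36 with an adjusted p of 0.0549 by edgeR.

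Around Ripk4, the list of 18 genes held epidermal genes and Ripk4 partners, among them Chuk, which is also in the TNF receptor list. It had 11 tested members in heart and 13 in liver, with medians of -0.029 and 0.13 and 0 with an unadjusted p under 0.05. Prkcd, the protein kinase that Ripk4 binds, had log2 fold changes of QKO over WT of -0.28 (SE 0.15) in heart and 0.20 (SE 0.20) in liver. Grhl3, a transcription factor of the epidermis, had 3 counts over QKO hearts and 8 over WT hearts, and 21 over QKO livers and 22 over WT livers, and was not tested. In WT heart over liver 2 of 12 rose and 4 fell, where 35.6% of all genes tested were called higher and 36.9% lower. Klf4 (3.90) and Grhl2 (2.16) rose, and Chuk (-2.32), Nectin1 (-2.11) and Grhl1 (-1.72) were among those that fell. Prkcd did not pass there, at -0.33 (SE 0.21).

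Of 17 NF-kappaB targets, which many signals besides Ripk1 and Ripk2 raise, the medians were -0.00063 in heart and -0.0047 in liver. Il1b, a cytokine, had 1797 counts over QKO livers and 674 over WT livers, a log2 fold change of 1.48 (SE 0.28) with an adjusted p of 0.142 by edgeR. By DESeq2, without the filter, with the replicate block and without QKO liver 4, 1 of the members was called in liver. Over all genes, those settings called 50 of 17738, 20 of 30173, 16 of 17738 and 15 of 18151. In heart Vcam1 was the 1 of 14 tested with an unadjusted p under 0.05, at -0.29 (SE 0.11), beside 7.19% of all genes. In WT heart over liver 5 of 15 rose and 8 fell, where 35.6% of all genes tested were called higher and 36.9% lower. Nfkb2 (1.39) was among those that rose, and Cxcl10 (-3.15), Il1b (-3.08), Birc3 (-1.34) and Nfkbia (-1.06) among those that fell.

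**Figure D5:**
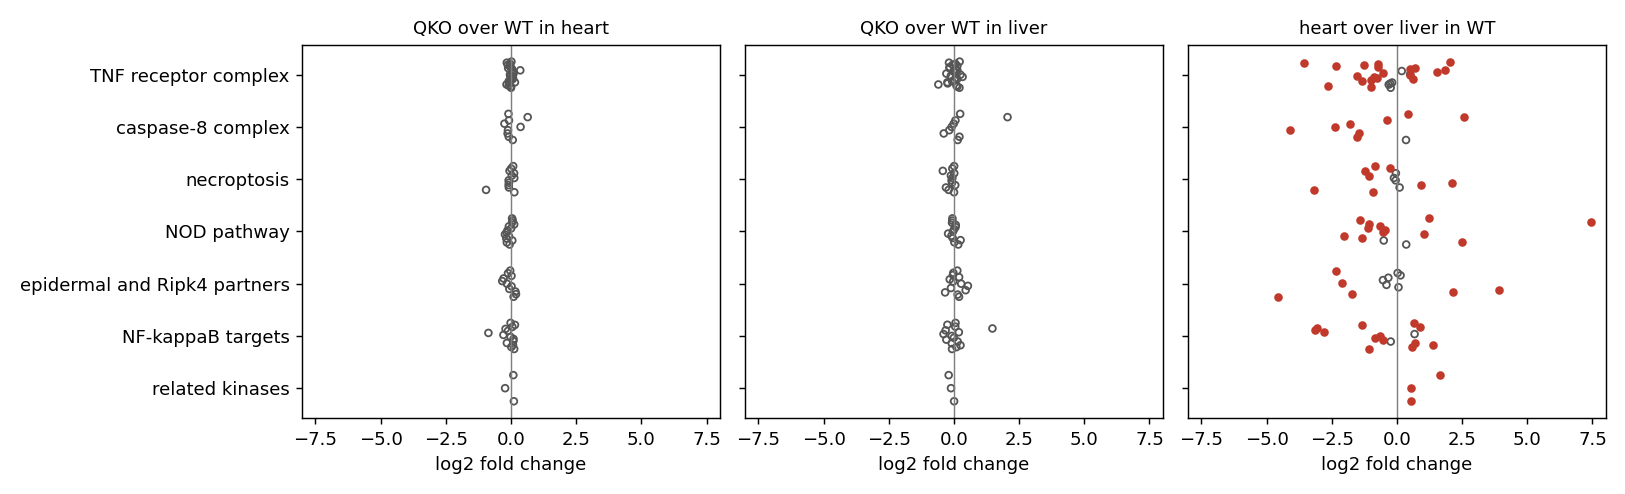
Log2 fold change of every tested member of the 7 lists in the 3 comparisons, with filled red points for genes past an adjusted p of 0.05 in edgeR and open points for the rest. In both QKO over WT panels 0 points are filled, and in heart over liver in WT filled points lie on both sides of 0 in each list except the related kinases, where 3 of 3 lie above it.

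The 4 kinases did not move together across libraries. With the mean of each tissue removed, Pearson correlations of log2 CPM over the 16 libraries ran from -0.34, for Ripk1 with Ripk3, to 0.38, for Ripk2 with Ripk3, and these libraries share depth and composition within a tissue. The likeness to other genes was measured in the same way over 19586 genes, and for each kinase the 3 most alike are named as a description. For Ripk1 they were Trim55 (0.894), Rilpl1 (0.877) and Zfp821 (0.865). For Ripk2 they were Bst1 (0.832), Tead3 (0.827) and Fhod1 (0.809). For Ripk3 they were Atp6v0a4 (0.908), Pip4p1 (0.816) and Slc44a3 (0.787). Bst1 and Atp6v0a4 rest on low counts, with means of 0.242 and 0.151 CPM over the 16 libraries. For Ripk4 they were the pseudogene Gm31663 (0.919), Suv39h1 (0.840) and Hist1h3c (0.826), of which Suv39h1 had a log2 fold change of 0.66 (SE 0.20) and Hist1h3c of 1.19 (SE 0.46) in QKO over WT hearts. Ripk4 rests on 1 to 13 counts per library in WT hearts, and each gene named here is the extreme of 19586 correlations. The genotype means were not removed, so the gap between QKO and WT hearts that chose Ripk4 enters its correlations. The fold changes of Suv39h1 and Hist1h3c in heart are therefore no independent support.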

How the data were processed

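RNA of heart and liver of 8 mice was sequenced, 4 QKO and 4 WT, per the labels from stranded libraries depleted of ribosomal RNA, in pairs of 75 bp reads. The submitters' processing notes name mm10, HISAT2, featureCounts, cutadapt and limma, with no versions. The authors deposited raw counts per gene for 48709 Ensembl identifiers. The annotation release and strand setting are not given in the sources used here. GENCODE M21 (GRCm38) gave symbols, positions and exon lengths to 48349 identifiers. The version was the same for 41341, and 360 had no match. Each of the 16 columns belonged to a library, with 0 others.

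Counts were tested in edgeR 4.0.16 (R 4.3.3) by its quasi-likelihood F test after TMM (trimmed mean of M-values) scaling and the edgeR filter on low counts, with Benjamini-Hochberg adjustment over all genes tested and a threshold of 0.05. Each contrast was fitted on its own 8 libraries. The script was tested on simulated data. The SE was derived from the log2 fold change and its F value. Intervals of ratios of summed counts are exact binomial, at 95%, and cover counting error only. All 4 members passed the filter in each of the 3 comparisons, Ripk4 with WT hearts through the counts of the other group, so its contrasts with WT hearts carry no test. No set tests were run: lists are described by counts and medians.

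The members and lists were chosen with earlier results of these data known. Named were the 4 kinases, the Msr genes, per list the called members with the 5 smallest p and fixed direct partners, the nearest coding gene on each side, the 3 most alike genes, and list members nearest to a call, the last chosen after their values were seen. A few genes that this rule names are not reported here. The alternatives were relative log expression (RLE) scaling, DESeq2 1.42.0, limma-voom 3.58.1, no filter, protein-coding genes alone, each replicate left out, the replicate block, a term for the series of animal numbers, a single fit of all 16 libraries, and the libraries in doubt left out. The series apart were added after seeing the data.

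The replicate numbers of QKO and WT mice were checked for pairing by the correlation of deviations from the group means across genes. They were 0.0419, 0.0473, 0.00646 and 0.243 in heart and 0.022, -0.0765, -0.048 and 0.0742 in liver, so these numbers were not taken to pair the mice. Heart and liver of a WT mouse are paired by the animal, with correlations of 0.0609 to 0.0859. Among 24 pairs of replicates within a group the chi-square per gene was 23.5 or more, so none was a copy.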

Additional observations from a re-analysis of the deposited data

Results flagged for a closer look

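Ripk1 in WT liver 4 stood at 30.9 CPM, away from the other WT livers, the nearest of which was WT liver 3 at 21.2 CPM. The gap was 0.895 of the range of the group, above Dixon's 95% critical value for 4 samples, and it was the 1 flag among 16 groups tested, where chance gives about 1 in 20. Skeletal muscle markers summed to 237 CPM in that library and pancreatic acinar markers to 156 CPM. QKO liver 4, whose Ripk1 level was 28.8 CPM, held 1.31 CPM of skeletal and 2.77 CPM of acinar markers. The part of these transcripts in the Ripk1 level was not tested. Without WT liver 4 the log2 fold change of Ripk1 in QKO over WT livers was 0.20, with an adjusted p of 0.931 by edgeR.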

How the results depend on the processing

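Over 19 settings per comparison, the log2 fold change of Ripk4 in QKO over WT hearts ran from 2.45 to 3.01. In liver that of Ripk2 ran from 0.18 to 0.58 and passed in none of them. Ripk1 in liver ran from -0.073 to 0.20 when a replicate was left out, and turned its sign without QKO liver 4 (-0.073) and without WT livers 1 (-0.019), 2 (-0.030) or 3 (-0.00012). Within animal series 47, Ripk1 in QKO over WT hearts was -0.12 and Ripk3 0.28. In heart over liver of WT mice, Ripk2 lost its call without WT livers 3 and 4 (-0.40) and within series 47 (-0.46), and Ripk3 was 0.11 within series 48. Ripk1 passed there under all 19 settings, at -2.10 to -1.70, and Ripk4, given as a description, ran from -6.14 to -5.56. In this comparison, leaving out the hearts of replicate 4 and leaving out WT heart 4 are the same fit, entered under both names. Genes called in heart between QKO and WT numbered 28, against 64 by DESeq2, 102 without the filter, 16 in the fit of all 16 libraries, 108 within series 47 and 18 to 25 with a replicate left out. In liver 15 were called, against 50 by DESeq2, 9 among protein-coding genes alone, 44 in the fit of all 16 libraries, 33 within series 48 and 12 to 19 with a replicate left out. Within series 47 in heart, 1 of 11 tested necroptosis genes was called, beside 108 of 16322 genes in all. The cause of these differences was not tested. With the replicate number as a block, 50 genes were called in heart and 16 in liver, Ripk4 was 2.70 in heart and Ripk2 0.37 in liver. With the animal as a block between the tissues, Ripk2 was -0.57 (adjusted p = 0.0127 by edgeR) and the calls of Ripk1, Ripk2 and Ripk3 did not change. Low counts limit Ripk4 in WT hearts, at 1 to 13 per library, and Ripk3, at 19 to 77 per heart library.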
